A study of Homo sapiens with 12 samples.

Results

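The genes that stood at 50% or less of their wild-type level in NFKB1 S80A HEK293T cells numbered 93. Each had a mean of at least 1 CPM (the read count of a gene scaled by the library total) over the 6 wild-type (WT) libraries. The mean over the 6 S80A libraries was at most 50% of it, and the highest S80A library lay below the lowest WT library, as it did for 5.33% of the expressed genes. NEFM, SLC7A3, SERPINB9 and the HOX and PCDH genes were left out of the set by definition. The 93 genes were 0.714% of the 13034 expressed genes, those with a mean WT level of at least 1 CPM, and the count table held 33093 usable genes. The mirrored rule, with S80A cells at 200% of WT or more, found 55 genes. Since the 93 genes were chosen by the measured difference in CPM between genotypes, their S80A and WT levels are given as a description, with no test, and counts of genotype calls over gene lists leave the 93 genes out.

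RNA from 12 HEK293T samples was sequenced: 3 of WT cells left untreated, 3 of WT cells given 10 ng/ml TNFα for 3 h, and the same numbers of NFKB1 S80A cells under each condition. HEK293T is a transformed human embryonic kidney line that carries viral genes, among them the SV40 large T antigen. The S80A cells carry an alanine in place of serine 80 of p50, put into the endogenous NFKB1 gene by Cas9 cutting with a single-stranded DNA template, and edited cells were isolated as single-cell clones. The number of clones sequenced, and whether the WT cells were cloned, are not given in the sources used here, so the allele and the history of a clone cannot be told apart. The library totals ran from 15624878 to 20889577 counts. NFKB1 itself stood at 92.4 CPM in WT and 104 CPM in S80A cells (112% of WT, edgeR adjusted p = 0.534), a level that cannot check an exchange of single bases. The list of kidney lineage markers summed to 132.3 to 148 CPM in WT and 138 to 155.3 CPM in S80A libraries, with 9 markers at a mean WT level of at least 1 CPM and PAX8, CDH16 and UMOD at 0. Of its 10 genes tested, 4 were lower in S80A cells and 1 was higher by edgeR, where 9.47% of all genes tested were lower and 7.21% higher.

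NF-κB is a family of transcription factors that bind DNA as dimers, and p50 is the DNA-binding subunit made from the p105 protein that NFKB1 encodes. p50 has no transactivation domain of its own: its homodimers can occupy κB sites without activating them, and its dimers with p65 carry the response to TNFα. That cytokine releases the dimers from their inhibitors through the IKK kinases, and the response in most cells includes cytokine genes and inhibitors of the pathway.

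The starts of 5 of the 93 genes are shown here because they span the depths of loss described below. GSPT2 and IGFBPL1 had no read in any S80A library and LXN had 1, whereas STAT5B and MBD4 stood at 44.8% and 48.2% of WT. Each line is the 250 bases upstream of a RefSeq transcript start (GRCh38.p14, read 5′ to 3′ on the strand of the gene), with each CG dinucleotide in capitals. GSPT2 lies at chrX:51743192-51743441 (plus strand), IGFBPL1 at chr9:38424455-38424704, LXN at chr3:158672649-158672898, STAT5B at chr17:42276392-42276641 and MBD4 at chr3:129439949-129440198 (all minus strand).
GSPT2: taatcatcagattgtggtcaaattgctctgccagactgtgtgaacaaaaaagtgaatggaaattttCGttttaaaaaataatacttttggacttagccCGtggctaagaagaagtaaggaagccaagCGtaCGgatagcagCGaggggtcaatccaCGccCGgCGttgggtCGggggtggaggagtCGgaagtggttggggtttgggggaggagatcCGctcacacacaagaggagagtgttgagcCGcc
IGFBPL1: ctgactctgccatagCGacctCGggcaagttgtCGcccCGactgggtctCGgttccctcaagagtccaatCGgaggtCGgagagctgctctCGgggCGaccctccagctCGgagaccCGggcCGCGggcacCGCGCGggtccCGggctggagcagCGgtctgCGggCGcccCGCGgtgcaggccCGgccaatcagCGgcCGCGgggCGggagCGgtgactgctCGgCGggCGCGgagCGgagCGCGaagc
LXN: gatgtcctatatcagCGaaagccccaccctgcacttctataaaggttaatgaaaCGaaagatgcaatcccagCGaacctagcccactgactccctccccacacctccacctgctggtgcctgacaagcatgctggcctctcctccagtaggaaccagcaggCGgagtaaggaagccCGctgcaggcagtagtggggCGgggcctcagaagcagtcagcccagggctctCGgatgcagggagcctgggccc
STAT5B: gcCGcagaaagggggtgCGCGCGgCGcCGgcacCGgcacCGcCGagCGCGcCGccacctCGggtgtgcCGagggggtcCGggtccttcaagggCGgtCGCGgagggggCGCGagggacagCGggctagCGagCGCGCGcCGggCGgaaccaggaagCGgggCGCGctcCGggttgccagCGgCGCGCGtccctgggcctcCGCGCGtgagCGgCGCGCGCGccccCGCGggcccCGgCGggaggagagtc
MBD4: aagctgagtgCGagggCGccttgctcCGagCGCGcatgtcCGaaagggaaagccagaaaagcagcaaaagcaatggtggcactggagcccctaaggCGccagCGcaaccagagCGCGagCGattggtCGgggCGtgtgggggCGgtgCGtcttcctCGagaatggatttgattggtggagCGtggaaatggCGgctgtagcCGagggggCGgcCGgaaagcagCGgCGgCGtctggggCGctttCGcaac
The CG dinucleotides in these windows numbered 12 for GSPT2, 35 for IGFBPL1, 7 for LXN, 47 for STAT5B and 26 for MBD4. Few and many CG dinucleotides thus occurred among the genes that were off or nearly off, and the windows of the 2 genes near 50% held an intermediate and the highest number. Those 2 genes were chosen for their WT level, so depth of loss and WT level cannot be told apart in these windows.

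The depth of loss varied widely within the set. The S80A level had a median of 34.9% of WT and ran from 0% to 49.8%. It was at or under 20% for 31 genes, from 20% to 35% for 16 and from 35% to 50% for 46. The genes just inside the limit were GRIN2D (49.5%), IFITM2 (49.7%) and KIAA1462 (49.8%). Those just outside it were SLC2A3 (50.1%), C17orf75 (50.4%) and RPS6KA6 (51.0%), so the limit divides a continuous range. Most of the 93 genes were weakly expressed: 66.7% had a mean WT level under 5 CPM, against 17.7% of all genes with at least 1 CPM, and the median of the set was 3.24 CPM against 32.8 CPM. A single gene, CA2, held 35.3% of the summed CPM of the set in WT cells. The annotation gave 83 of the genes as protein coding and 7 as long non-coding or antisense RNA, and the other 3 symbols (C21orf90, LOC101060400 and RP11-438N16.1) could not be placed.

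**Figure D1:**
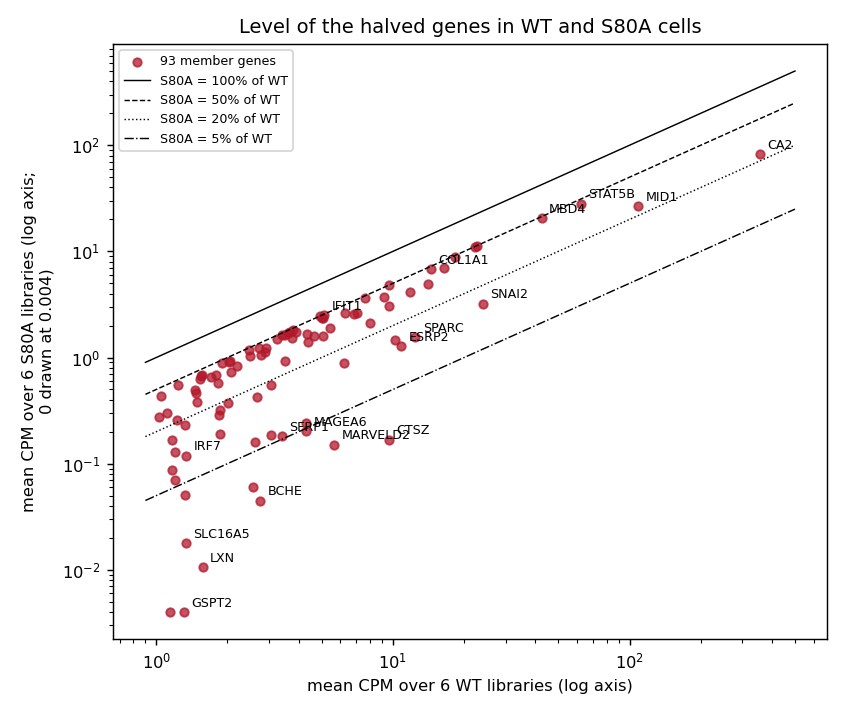
Mean CPM of each of the 93 genes over the 6 S80A libraries (vertical log axis) against the mean over the 6 WT libraries (horizontal log axis), with lines at 100%, 50%, 20% and 5% of WT. Every gene lies under the 50% line by the rule, CA2 has the highest count level in both genotypes, and the points below the 5% line are genes between 1 and 10 CPM in WT cells with few or no S80A reads.

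The S80A level had a median of 33.1% of WT in untreated cells and 34.3% in cells given TNFα. Taken within the untreated libraries alone, 88 of the 93 genes stood at 50% of WT or less, and within the TNFα libraries alone 81 did, with 76 in both. The rule used these same libraries, so these levels and counts are largely set by it. The rule was also applied to one treatment and read in the other, which it had not used. In the 6 untreated libraries it chose 107 genes, of which all but 1 were lower in S80A than in WT cells given TNFα, 77 stood at 50% or less, and 100 did not overlap between genotypes (12.1% of all genes with at least 1 CPM did so in that direction). In the other direction it chose 97 genes, of which 95 were lower in untreated S80A cells, 75 stood at 50% or less, and 89 did not overlap (12.4% of all genes). The counts of genes lower and of genes at 50% or less have no share over all genes beside them and are a description only. Both treatments set the same WT and S80A cells against each other, so these readings repeat the libraries but not the editing.

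Among the genes that were off or nearly off, GSPT2 encodes a translation termination factor of the eRF3 family on the X chromosome. Its counts were 27, 21 and 14 in untreated WT cells, 29, 27 and 30 in WT cells given TNFα, and 0 in each of the 6 S80A libraries. Its level was therefore at least 7.88-fold lower in S80A cells, with 3 counts per library taken as the floor (0.144 to 0.192 CPM). The near relative GSPT1 has a similar coding sequence, so the assignment of reads to GSPT2 is uncertain. IGFBPL1, a secreted relative of the insulin-like growth factor binding proteins, had 22, 23 and 16 counts in untreated WT cells, 24, 26 and 18 with TNFα, and 0 in all S80A libraries (at least 6.85-fold lower). Both genes were thus read in every WT library and in no S80A library.

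LXN encodes latexin, an inhibitor of carboxypeptidases. It had 34, 43 and 25 counts in untreated WT cells and 30, 17 and 29 with TNFα. In S80A cells a single count appeared in untreated replicate 2 and none elsewhere (at least 9.42-fold lower). LXN lies on the strand opposite to the expressed gene GFM1, which stood at 86.3% of WT, and whether the counting used strand is not given in the sources used here. SLC16A5, a monocarboxylate transporter, had 20 to 29 counts in the WT libraries and at most 1 in an S80A library (at least 8.02-fold lower). BCHE, the plasma cholinesterase, had 44 to 64 counts in WT libraries and 5 counts over all 6 S80A libraries, never more than 1 (at least 16.5-fold lower). The other genes with at most 3 counts in every S80A library were MAGEB2 (at least 7.94-fold lower), NCAM2 (at least 7.22-fold), TAL1 (at least 7.19-fold) and TCEAL3 (at least 7.02-fold), which brought these genes to 9.

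Other deep losses were in genes above this floor. CTSZ encodes cathepsin Z, a lysosomal carboxypeptidase that is also secreted. Its counts were 193, 223 and 174 in untreated WT cells, 139, 165 and 199 with TNFα, then 7, 2 and 2 in untreated S80A cells and 5, 1 and 2 with TNFα. The S80A mean of 0.168 ± 0.11 CPM was 1.75% of the WT mean of 9.64 ± 1.2 CPM (SD, n = 6 libraries each, as in the values that follow, with WT given first). MARVELD2 encodes tricellulin, a protein of tight junctions where 3 cells meet. It stood at 5.66 ± 1.4 CPM in WT cells and 0.151 ± 0.072 CPM in S80A cells (2.66%), with 74 to 135 counts in WT and 1 to 4 counts in S80A libraries. LOC101060400, a symbol with no position in the annotation used, stood at 2.36% of WT. CPNE7, a calcium-dependent membrane-binding copine, stood at 5.70% of WT (4.28 ± 0.36 to 0.244 ± 0.12 CPM). CTSZ, MARVELD2 and CPNE7 kept reads in every S80A library, unlike GSPT2 and IGFBPL1.

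The 12 genes with the highest WT counts kept a part of their level. CA2, a cytosolic carbonic anhydrase that interconverts carbon dioxide and bicarbonate, stood at 272, 334 and 323 CPM in untreated WT cells and at 377, 411 and 409 CPM with TNFα. In S80A cells it was at 63.1, 77.9 and 65.5 CPM untreated and at 92.2, 94.1 and 101 CPM with TNFα, a mean of 23.2% of WT. MID1, a microtubule-bound ubiquitin ligase encoded on the X chromosome, ran from 100 to 117 CPM over the WT libraries and from 22.8 to 31.5 CPM over the S80A libraries (24.5%). STAT5B, the signal transducer that responds to cytokine and growth hormone receptors, ran from 58.8 to 65.2 CPM in WT and from 24.9 to 32.2 CPM in S80A libraries (44.8%). MBD4, a DNA glycosylase that removes mismatched thymine and uracil at CG sites, stood at 42.6 ± 1.3 and 20.5 ± 1.3 CPM (48.2%). Per kilobase of annotated exon, CA2 had 177 CPM per kb in WT cells, MBD4 12.7, MID1 7.57, SNAI2 7.32 and STAT5B 5.16.

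**Figure D2:**
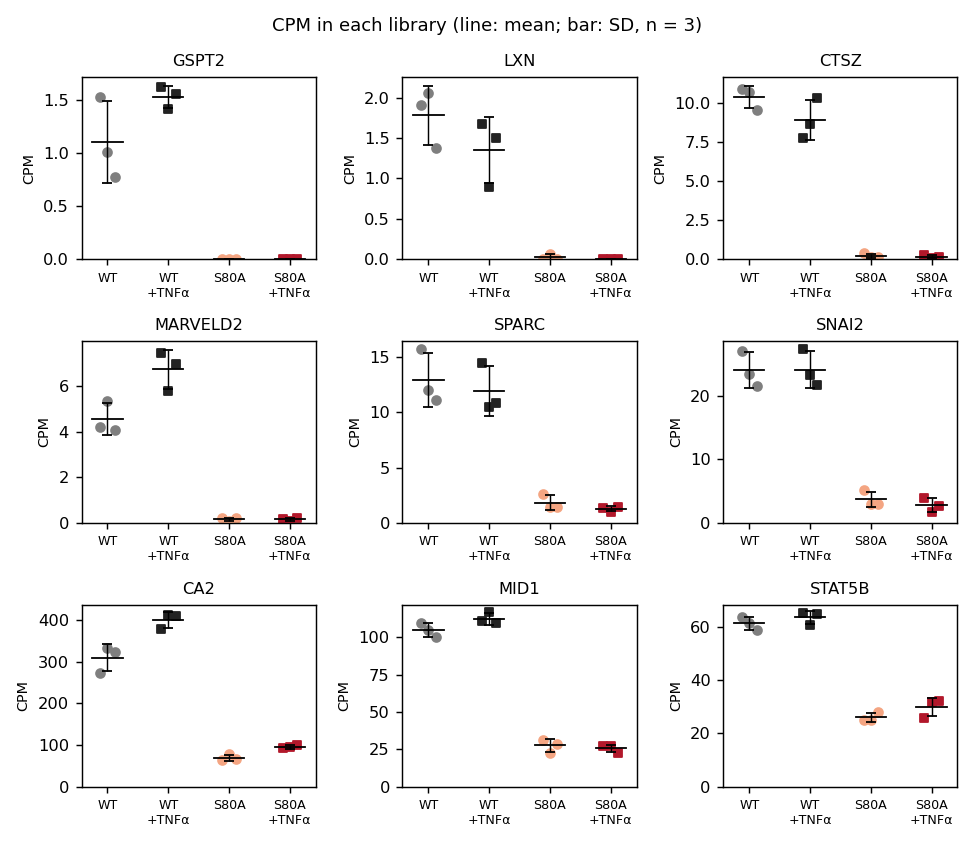
CPM of 9 of the genes in each of the 12 libraries (points), by genotype and treatment, with the mean and SD of the 3 libraries of a group and each vertical axis starting at 0. GSPT2, LXN, CTSZ and MARVELD2 lie at or near 0 in all S80A libraries, whereas CA2, MID1 and STAT5B keep a steady lower level, and CA2 is higher with TNFα in both genotypes.

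Genes of matrix and secreted proteins made up 12 of the 93, with a median of 30.5% of WT. SPARC, a collagen-binding matrix protein, stood at 15.7, 12.0 and 11.1 CPM in untreated WT cells, 14.5, 10.5 and 10.8 CPM with TNFα, 2.63, 1.45 and 1.44 CPM in untreated S80A cells and 1.39, 1.02 and 1.43 CPM with TNFα. Its S80A level was 12.5% of WT. SFRP1, a secreted antagonist of Wnt ligands, went from 3.38 ± 0.78 to 0.182 ± 0.14 CPM (5.38%). FBN1, the fibrillin of microfibrils, went from 16.5 ± 2.9 to 6.94 ± 1.6 CPM, and COL1A1, a chain of type I collagen, from 14.5 ± 0.86 to 6.78 ± 0.62 CPM. CILP2, a protein of cartilage matrix, went from 18.3 ± 1.4 to 8.91 ± 1.3 CPM. Of 102 other genes tested from a list of extracellular matrix and matrix enzyme genes, 18 were lower and 21 higher in S80A cells by edgeR, where 9.47% of all 14383 genes tested were lower and 7.21% higher. The median log2 difference between S80A and WT cells was 0.06 over these genes and 0.00 over all genes tested.

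Adhesion and junction genes and regulators of epithelial state made up 11, with a median of 34.0%. SNAI2 encodes the repressor SLUG, a driver of the epithelial to mesenchymal transition, and ESRP2 encodes a splicing factor of epithelial cells. SNAI2 stood at 27.1, 23.4 and 21.5 CPM in untreated WT cells and 27.3, 23.2 and 21.6 CPM with TNFα. In S80A cells it was at 5.11, 2.90 and 3.02 CPM untreated and 3.91, 1.73 and 2.64 CPM with TNFα (13.4% of WT). ESRP2 went from 10.9 ± 1.7 to 1.27 ± 0.46 CPM (11.7%), CDH1, the epithelial cadherin, from 5.09 ± 0.82 to 2.34 ± 0.64 CPM (46.0%), and TENM1, a teneurin of neuronal contacts, from 14.1 ± 2.3 to 4.98 ± 1.4 CPM (35.4%). The set thus holds genes of opposite roles in epithelial state, SNAI2 against ESRP2 and CDH1, and the rule makes every gene in it lower in S80A cells. In the list of 12 epithelial markers, 10 were detected (CLDN3 and KRT19 were at 0 in all libraries), and the summed level was 52.1 to 60.5 CPM in WT and 53.3 to 64.1 CPM in S80A libraries. Beside ESRP2 and CDH1 3 epithelial markers were tested, of which 1 was lower and 1 higher, with a median log2 difference of −0.45. The 12 mesenchymal markers, all detected, summed to 644.5 to 861 CPM in WT and 597.1 to 865.9 CPM in S80A libraries, so both sums overlapped between genotypes.

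The list of neural and adrenal-medulla lineage markers, to which none of the 93 genes belongs, summed to 188.9 to 238.1 CPM in WT and 104.1 to 156.5 CPM in S80A libraries, with PHOX2A and TH at 0. NEFM, a neurofilament gene that the rule left out, ran from 91.7 to 121 CPM in WT and from 0.149 to 0.379 CPM in S80A libraries. Without NEFM the list summed to 90.5 to 117 CPM in WT and 104 to 156 CPM in S80A libraries, so the lower sum rested on that gene. Of the 8 genes of the list that were tested, 2 were lower and 1 was higher, with a median log2 difference of −0.04. In bulk RNA fewer cells of a type and less RNA per cell cannot be told apart. The blood cell markers summed to 7.31 to 10.8 CPM in WT and 6.70 to 10.4 CPM in S80A libraries, with CD3E, HBB and PTPRC at 0.

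Interferon and immune signalling genes made up 10, with a median of 41.4% of WT. Ordered from receptor to effector, CD40, a receptor of the TNF receptor family that signals to NF-κB, stood at 46.5% (3.50 ± 0.29 to 1.63 ± 0.26 CPM). EDA2R, another receptor of that family, stood at 15.9% (2.67 ± 0.67 to 0.425 ± 0.18 CPM). IKBKE, the kinase IKKε of antiviral signalling, stood at 17.8% (3.06 ± 0.55 to 0.545 ± 0.40 CPM). IRF7, the transcription factor that induces type I interferons, was at 1.34 ± 0.37 CPM in WT and 0.119 ± 0.094 CPM in S80A cells (8.90%). The interferon-induced genes IFI35, IFIT1 and IFITM2 kept 38.0%, 49.0% and 49.7%. IFITM2 has near-identical neighbours in its gene family, so the assignment of its reads is uncertain.

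Most genes in the list of interferon and antigen presentation genes were not expressed enough to test. Of its 257 genes, 53 were tested, and 4 of the 93 genes (IRF7, IFI35, IFIT1 and IFITM2) belong to it. Of the other 49, 6 were lower in S80A cells and 2 higher, with a median log2 difference of −0.01. None of the 93 belonged to the list of textbook NF-κB targets and inhibitors, which has 43 genes in the count table and does not cover every NF-κB target. Of its genes 34 were tested, 1 was lower and 7 were higher, with a median log2 difference of 0.11. Over all genes tested, 9.47% were lower and 7.21% higher.

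Zinc finger genes and other transcription factors made up 13, with a median of 31.3%. MKX, a homeobox factor of tendon, went from 11.8 ± 1.7 to 4.18 ± 0.85 CPM (35.6%), and TAL1, a factor of blood cell formation, was at 1.20 ± 0.37 CPM in WT cells and at the floor in S80A cells. The set held 7 zinc finger genes: ZNF91, ZNF804A, ZNF114, ZNF462, ZNF331, ZNF433 and ZNF492. ZNF91, a repressor of retroelements, stood at 38.2%, ZNF804A at 6.16%, ZNF114 at 45.3% and ZNF462 at 15.7%. ZNF91 and ZNF492 belong to a cluster of similar genes on chromosome 19, and reads may be split between such copies. Of the 483 other zinc finger genes tested, 27 were lower and 46 higher, with a median log2 difference of 0.07.

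The set held 3 cancer-testis genes, all of the MAGE family on the X chromosome, which are normally silent outside the germ line. MAGEA6 stood at 4.12, 5.09 and 4.67 CPM in untreated WT cells, 3.24, 4.34 and 4.35 CPM with TNFα, 0.413, 0.126 and 0.0957 CPM in untreated S80A cells and 0.0991, 0.192 and 0.287 CPM with TNFα (4.70% of WT). MAGEA3 stood at 6.14%, and MAGEB2 was at the floor as given above. MAGEA3 and MAGEA6 are near-identical copies, so their reads cannot be assigned to either with certainty. Of the 17 other cancer-testis genes tested, 5 were lower and 1 was higher, with a median log2 difference of −0.11.

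Enzymes made up 7, with BCHE, CA2 and MBD4 given above. Of the others, ITPKB, a kinase of inositol trisphosphate, stood at 26.2%, CDO1, the dioxygenase of cysteine, at 31.4%, and UGT3A2, a glycosyltransferase, at 32.3%. Transporters, channels and receptors made up 7, with a median of 43.5%. KCNJ2, an inward rectifier potassium channel, stood at 17.2% and SLC5A5, the sodium-iodide symporter, at 18.7%. Of 254 other solute carriers tested, 35 were lower and 20 higher, with a median log2 difference of −0.04.

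The 20 genes of intracellular signalling, trafficking and other proteins ran from 0% to 49.3% of WT, with a median of 38.0%. DTX3, a ubiquitin ligase of the Deltex family linked to Notch, went from 10.2 ± 2.1 to 1.47 ± 0.56 CPM (14.4%). RASGEF1A, an exchange factor for Ras-family proteins, went from 22.2 ± 1.1 to 10.9 ± 0.70 CPM (49.3%). PRKCB, a protein kinase C, stood at 38.8%, HSPA2, a testis-rich HSP70 chaperone, at 38.1%, KRT222 at 38.0% and FAM50B, an imprinted retrogene, at 40.0%. The group thus held genes without reads and genes just inside the limit.

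The S80A libraries differed in how much of the deepest losses remained. Over the 31 genes at or under 20% of WT, the median level was 8.62%, 5.24% and 7.84% of WT in untreated S80A replicates 1, 2 and 3, and 9.50%, 6.27% and 4.90% in those given TNFα. Untreated replicate 1 was the highest of its group for 20 of the 31 genes and TNFα replicate 1 for 18 of 31. These libraries were also the highest of their group for 43.2% and 41.1% of all expressed genes, and WT untreated and TNFα replicates 1 were the highest for 18 and 14 of the 31 genes. Untreated replicate 2 had the lowest mean correlation with its group of all libraries (0.987). Without it the rule found 89 genes, of which 86 were among the 93.

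**Figure D3:**
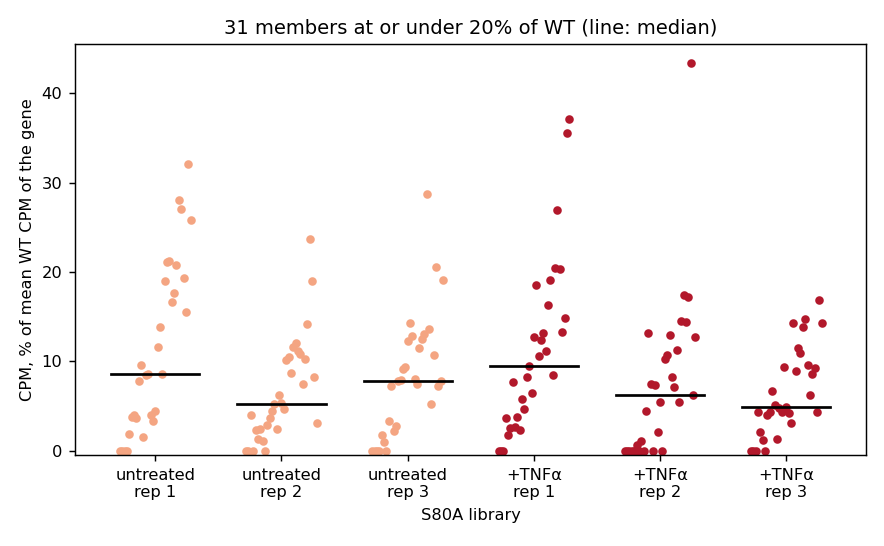
Level of the 31 genes at or under 20% of WT in each S80A library, as a percent of the mean WT CPM of the gene, with one point per gene and the median as a line. The medians lie between 4.90% and 9.50%, replicate 1 of each treatment has the highest, and single weakly counted genes reach above 30% in a library.

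The genes were then placed on the genome, which the rule had not used. Of the 93, 90 had a RefSeq position on GRCh38.p14. They lay on 20 of the 23 chromosomes, with none on chromosomes 4, 18 and 22. Chromosome 17 held 13 (14.4% of the placed genes, against 6.10% of the placed genes with at least 1 CPM) and the X chromosome 8 (8.89% against 3.55%). As a share of the expressed genes of a chromosome, chromosome 21 was highest, with 3 of 123 (2.44%), against 1.78% on X and 1.68% on 17. The genes of chromosome 17 and of the X chromosome differed in depth. On the X chromosome 6 of 8 stood at or under 20% of WT, among them GSPT2, the MAGE genes and TCEAL3. On chromosome 17, 9 of 13 stood above 35% and 2 at or under 20% (SLC16A5 and KCNJ2).

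Chromosome 17 as a whole was lower in S80A cells. The 759 expressed genes there outside the set had a median log2 difference of −0.26, or 83.5% of WT, and 59.4% of them were called lower by edgeR, where 9.47% of all genes tested were. The median stood at −0.36 to −0.23 in the S80A libraries and at −0.06 to 0.03 in the WT libraries, measured on log2 CPM relative to the WT mean, and the genotypes did not overlap. Chromosome 10 showed the same to a smaller extent, with a median of −0.18 (88.0% of WT), 39.1% called lower and S80A libraries at −0.23 to −0.16. Chromosome 13 had a median of −0.08, and the 20 others lay between −0.01 and 0.09. In windows of 10 Mb, the median was below 0 in all 9 windows of chromosome 17 and in all 14 of chromosome 10. A lower level thus ran along the length of both chromosomes. Its part in the losses was measured only by rescaling. When each gene was set against the median ratio of its chromosome, 82 of the 93 genes still met the rule, 4 others came in, and 11 dropped out. Of these, 8 lay on chromosome 17 (COL1A1, GAS7, IFI35, PHOSPHO1, RAMP2-AS1, RILP, STAT5B and UTS2R) and 3 on chromosome 10 (IFIT1, KIAA1462 and RASGEF1A).

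**Figure D4:**
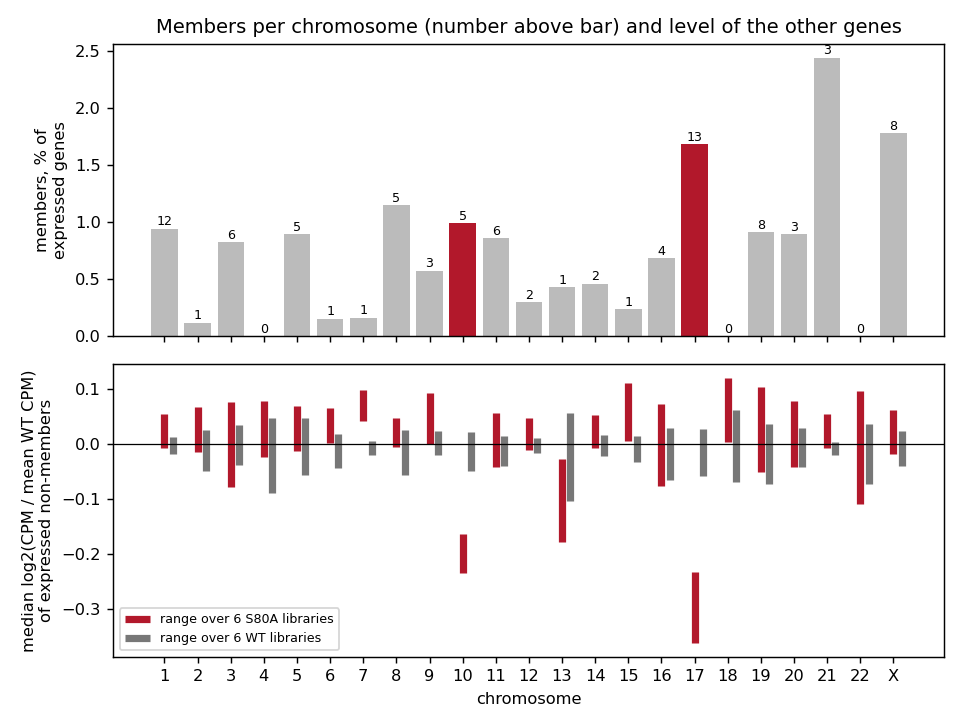
Top, share of the expressed genes of each chromosome that belong to the 93, with their number above each bar. Bottom, the range over the 6 S80A and the 6 WT libraries of the median log2 ratio to the mean WT CPM for the other expressed genes of the chromosome, where chromosomes 10 and 17 lie below 0 in all S80A libraries and clear of the WT range.

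Within 1 Mb of another gene of the set lay 27 of the 90 placed genes, in 13 groups, of which 12 were pairs and 1 was a trio. The trio was STAT5B, RAMP2-AS1 and IFI35 on chromosome 17 (chr17:42199177-43014456), where 24 other expressed genes had a median of 83.5% of WT. The pair of ESRP2 and CDH1 (chr16:68229033-68835537) enclosed 7 expressed genes with a median of 104% of WT, and the pair of IFITM2 and IRF7 (chr11:307816-615950) 12 with a median of 99.6%. GNAS-AS1 and CTSZ (chr20:58818918-59007254) enclosed 2, at 96.0% and 108%. The genes between the members of these last 3 pairs thus did not share the loss in their median. SLITRK3 with BCHE and MAGEA3 with MAGEA6 enclosed no expressed gene. PAQR9 and SLC9A9 (chr3:142949164-143848468) enclosed 3 with a median of 77.3%.

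The nearest expressed genes outside the set to either side of the placed genes, within 500 kb, numbered 145. Of these, 33 (22.8%) were called lower in S80A cells and 5 higher. Away from chromosomes 10 and 17 it was 9 of 112 (8.04%). The 9.47% of all genes tested includes those chromosomes and the 93 genes, so it is not a like background. Over the 20 chromosomes other than 10, 13 and 17, 1.67% to 12.9% of the genes outside the set were called lower. On chromosome 13 the share was 17.2%. Beside genes at or under 20% of WT, 38 neighbours had a median of 98.2% of WT and ran from 78.9% to 125%. Genes of the set were passed over as neighbours, so a neighbour that met the rule could not appear here. These levels are thus partly set by the rule. A further limit concerns overlaps: 9 of the 93 overlapped another expressed gene, 7 of them on the opposite strand, among them IFIT1 with LIPA, ESRP2 with NFATC3, GNAS-AS1 with GNAS and RAMP2-AS1 with RAMP2. RAMP2 stood at 54.3% of WT, so the level of RAMP2-AS1 and that of its partner cannot be told apart without strand.

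Promoters were read from RefSeq as the 250 bases before and 50 after each listed start (GRCh38.p14), and 62 of the 93 genes had an entry. With fewer than 80% matched, a check over the whole set is void, and the matches are given for single genes. The κB consensus GGGRNWYYCC was searched on both strands. It occurred in at least 1 listed promoter of 9 of the 62 genes, and no comparison is drawn from this number. As background, 9.02% of all genes with at least 1 CPM and 7.09% of all genes in the promoter table held it. The sites are shown because p50 is the subunit changed in these cells, with the fifth base, the variable N of the consensus, as a capital. Each is read 5′ to 3′ on the strand where it matched.
C1orf106: gggaCacccc
CTSZ: gggaCactcc
DMRTA2: ggggCtcccc
HSPA2: gggaGttccc
MFAP2: gggaCacccc
MKX: ggggCtcccc
MOB3C: gggaCtcccc
PAQR9: ggggCactcc
TSPEAR-AS1: gggaAtttcc
MOB3C also matched on the other strand 1 base away, as gggaGtcccc. The site of CTSZ began 54 bases before the start (chr20:59007299-59007308), that of HSPA2 50 bases and that of MOB3C 111 bases before it. A match is a description of letters and not a bound site. The promoters of GSPT2, IGFBPL1, LXN, STAT5B and MBD4 printed above had none.

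The response to TNFα was tested in one edgeR quasi-likelihood fit over all 12 libraries, in which all 93 genes were tested. The rule did not use this contrast, but it required that the genotypes not overlap over both treatments, which limits how large a response, or a difference in response, a member can have. The numbers of genes called are therefore partly set by the rule and are given as a description. In WT cells 1 of the 93 genes was called, against 0.688% of all genes tested, and in S80A cells 2 were called, against 1.26%. The median log2 response of the 93 genes was −0.08 in WT and −0.02 in S80A cells, and 0.00 over all genes in both. In WT cells 68 of the 93 were below 0 (73.1%, against 7193 of all 14383 genes) and in S80A cells 48 of 93 (51.6%, against 50.5%).

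IFIT1, an interferon-induced protein that binds viral RNA lacking cap methylation, fell with TNFα in both genotypes. It stood at 6.60, 7.01 and 6.15 CPM in untreated WT cells and at 3.96, 3.50 and 3.57 CPM with TNFα. In S80A cells it went from 3.10, 2.90 and 3.49 CPM to 1.73, 1.86 and 2.01 CPM, and treated and untreated libraries did not overlap in either genotype. The log2 response was −0.83 (SE 0.13, edgeR adjusted p = 0.00538) in WT and −0.76 (SE 0.16, edgeR adjusted p = 0.0256) in S80A cells. Its WT call was lost without WT untreated replicate 2 (log2 −0.77, edgeR adjusted p = 0.0552). Its S80A call was lost without S80A untreated replicate 3 (log2 −0.68) and without S80A TNFα replicate 1 (−0.70), 2 (−0.75) or 3 (−0.83), and adjusted p ranged from 0.0359 to 0.153 by edgeR over all 12 single omissions. S80A cells with TNFα held the lowest levels of the 4 groups, but the rule alone keeps every S80A library of IFIT1 below every WT library.

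CA2 rose with TNFα in S80A cells by 0.48 on the log2 scale (SE 0.11, edgeR adjusted p = 0.0451). In WT cells the value was 0.38 (SE 0.11, edgeR adjusted p = 0.205), with all 3 treated libraries above all 3 untreated ones in each genotype, and CA2 was called in WT cells without S80A untreated replicate 2 (edgeR adjusted p = 0.0334). The S80A call was lost in 10 of the 12 single omissions, with adjusted p from 0.00320 to 0.217 by edgeR. It passed without WT untreated replicate 1 and without S80A untreated replicate 2. A fit to the 6 S80A libraries alone called 0 of the 93 genes, IFIT1 and CA2 included. When the responses of both genotypes were averaged in the same fit, a contrast added after the data were seen, 3 of the 93 genes were called (2.17% of all genes were). These were IFIT1 (log2 −0.79, SE 0.10, edgeR adjusted p = 0.000319), CA2 (0.43, SE 0.08, edgeR adjusted p = 0.00456) and MOB3C, a relative of the MOB kinase activators (0.73, SE 0.14, edgeR adjusted p = 0.0120). All 3 of these calls held without each library in turn. MOB3C stood at 2.43, 1.68 and 2.09 CPM in untreated WT cells and 3.68, 2.93 and 3.52 CPM with TNFα, and at 0.826, 1.01 and 0.957 CPM and then 1.59, 1.60 and 1.43 CPM in S80A cells. The fold response of MOB3C was thus nearly the same number in both genotypes (log2 0.73 in WT and 0.74 in S80A cells) from different starting levels.

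**Figure D5:**
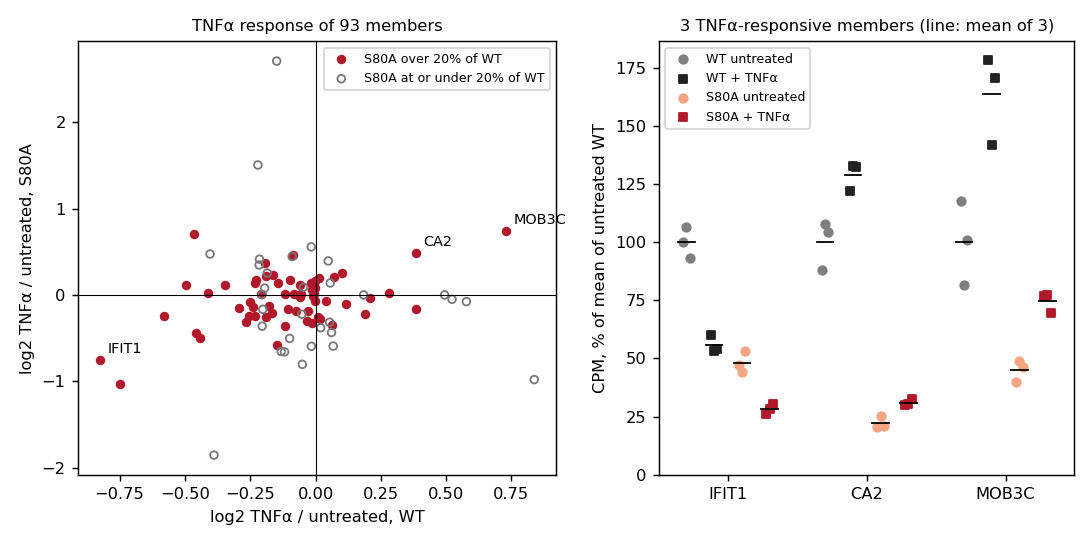
Left, log2 response to TNFα of the 93 genes in S80A against WT cells, with genes at or under 20% of WT as open circles, most of which rest on few S80A reads and scatter widely. Right, CPM of IFIT1, CA2 and MOB3C in each library as a percent of the mean of untreated WT cells, with a line at the mean of 3 libraries, where IFIT1 is lower and CA2 and MOB3C are higher with TNFα in both genotypes.

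No gene of the 93 was called for a response that differed between genotypes. The interaction of genotype and TNFα in edgeR called 0 of the 93 genes and 0% of the 14383 genes tested, and 4 of the 93 had an unadjusted p under 0.05, against 3.62% of all genes. Under the DESeq2 test and every other setting tried, the interaction again called 0 of the 93. These 4 genes, named after their values were seen, were DMRTA2 (log2 difference of responses 1.18, SE 0.44), CILP2 (0.39, SE 0.16), SFRP1 (1.73, SE 0.74) and ZNF492 (−1.82, SE 0.76), each with an edgeR adjusted p of 0.911. For IFIT1 and CA2 the differences were 0.07 (SE 0.21) and 0.10 (SE 0.15). For MOB3C the difference was 0.00, and no SE is given, since the SE used here is unreliable so near 0. The SE of its response was 0.18 in WT and 0.23 in S80A cells, so its difference is known less closely than either response. Of the 31 genes at or under 20% of WT, 23 had at most 10 counts in every S80A library, and the error of the difference ran higher for such genes (SFRP1, SE 0.74) than for genes with more reads (SNAI2, SE 0.32).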

How the data were processed

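RNA was measured in 12 samples, grouped by the genotype and treatment in their labels. The authors used HISAT to align 75 bp single-end reads (GRCh38) and HTSeq to count them, and deposited unnormalised counts for each gene symbol. Counting options and versions are not given in the sources used here. The authors' lists of their own comparisons (fold changes, p-values and normalised values) were not used. Of 33121 genes, 28 rows turned into dates were left out. CPM used column totals of 15624878 to 20889577 counts. A floor was set at 3 counts per library and covers counting error only.

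The genes and lists were chosen with earlier results of these data known. Counts were fitted in R 4.3.3 with edgeR 4.0.16 (filterByExpr with a minimum count of 10, TMM, quasi-likelihood test, a mean for each of the 4 groups, Benjamini-Hochberg threshold 0.05 over 14383 genes). SE was the log2 change divided by the square root of F, which is unreliable for changes near 0. In simulated counts for TNFα in WT cells (14242 genes, 199 changed), 93.5% of changed genes were recovered (87.9% at a log2 change of 1 and 99% at 2) and 6.53% of calls were false. The simulated counts had the same spread beyond counting error for every gene and no shared library effects. These rates need not hold for the data. Samples are described as independently generated triplicates, so p-values cover the spread between these samples. Alternatives used DESeq2 1.42.0, other scalings and filters, other limits of the rule, the replicate block and single omissions.

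Named were the 12 deepest losses, the 12 genes with the highest WT CPM, those next to the limit, those called for TNFα, up to 4 per list, groups within 1 Mb, those at the floor and NFKB1. Other genes named for their roles were chosen after their values were seen. Some marker genes are not reported here. Positions were matched by symbol to RefSeq (GRCh38.p14), 3 of them by an older symbol (C1orf106, C8orf31 and KIAA1462). Tables used Python 3.11.15 with pandas 2.3.3.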

Additional observations from a re-analysis of the deposited data

How the results depend on the processing

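The rule found 31 genes with a mean WT level of at least 5 CPM, 58 with S80A cells at 0.4 of WT or less and 140 at 0.6 or less. Its other alternatives gave 86 to 116 genes, and single omissions gave 89 to 97. Within 250 kb of another gene of the set lay 10 genes and within 5000 kb 42. For TNFα in WT cells the replicate block called 2 genes (IFIT1 and CA2, the latter with an edgeR adjusted p of 0.0476), and single omissions called 0 to 2. For TNFα in S80A cells 1 gene was called with no filter on low counts, 0 in a fit to only the 6 samples compared, and 0 to 2 in single omissions. The cause was not tested. The replicate numbers were not taken to pair the samples, since correlations of same-numbered deviations ran from −0.207 to 0.651 (mean 0.163, against −0.0827 for different numbers), and 5 of 12 samples correlated best with their own number. The block called 0 of the 93 genes for the interaction, as did single omissions (0 to 0). Genes called lower in S80A cells numbered 1362, from 1073 to 1661 over all settings. κB matches in the first listed promoter alone numbered 8. Averaged over both genotypes, TNFα called 3 of the 93 genes in every other alternative and 3 to 4 in single omissions. Depth limits most of the 31 genes at or under 20% of WT, of which 23 had at most 10 counts in every S80A library.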
